A study of Mus musculus with 9 samples.

Results

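The genes of potassium channel subunits were compared between hearts under pressure load and control hearts. The mice under load had transaortic constriction (TAC, 4 arrays), an operation that narrows the aorta so that the left ventricle ejects blood against a raised pressure, and that served here to bring on heart failure. The control mice had a sham operation (5 arrays). All were C57BL/6 males, left ventricles were taken after 6 weeks, and neither age, batch nor pairing is given. The members are all genes whose single array annotation symbol begins with Kcn, the root of the potassium channel nomenclature. There were 84 such genes among 18193 genes with 1 symbol, measured by 167 probe sets. Of the 84, 66 encode pore-forming subunits, 15 encode accessory subunits, and 3 (Kcnq1ot1, Kcnmb4os1 and Kcnmb4os2) are transcripts named after a channel gene that encode no subunit.

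Potassium channels let potassium leave the cell and so end the action potential and hold the resting potential. In ventricular muscle different families carry different currents: Kv4 pores with the accessory protein KChIP2 give the fast transient outward current that dominates early repolarisation in the mouse, Kv1 pores give further outward currents, inward rectifiers of the Kcnj family set the resting potential or open when ATP falls or when acetylcholine is released, and Kcnh2 and Kcnq1 form the rapid and slow delayed rectifiers. Channels of the Kcnk family, with a pair of pore domains per subunit, carry background current, and Kcnn and Kcnma1 channels open with intracellular calcium.

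Values are log2 RMA values, 1 per probe set, and the brightest probe set on average represented its gene. Differences are TAC minus sham in log2 units, each with its standard error (SE) from a limma fit over all genes, and a gene was counted as changed at a Benjamini-Hochberg adjusted p below 0.05 over all genes. Signal depends on the probe as well as on the transcript, so levels of different genes are not ranked. No label states that each array is a different animal, so a p-value here reflects the scatter among these arrays, which may be technical. The 8 ventricular cardiomyocyte markers had summed log2 levels of 111.9 to 112.0 in TAC and 112.3 to 112.5 in sham. Of these markers 1, Tnni3, fell, and Ryr2 did not pass (-0.23, adjusted p = 0.0586). The mean levels of the markers, 13.16 to 14.55, lay near the highest value on the arrays, 14.80. Differences may be compressed there, so these sums may miss a change in cardiomyocyte RNA. Among the sham arrays replicate 2 differed most from the rest. It was the highest or lowest sham array for 57 of the 84 genes (67.9%), against 63.5% of all genes. All 23 genes that changed with it also changed without it, and 4 more passed, when 27.0% of all genes changed. In bulk tissue, fewer cells of a type and less RNA per cell cannot be told apart.

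Of the 84 genes, 16 fell, 7 rose and 61 did not pass the threshold. The 23 changed genes are 27.4% of the members, near the 25.1% of all genes that changed, so at this threshold the number of changed members does not stand out. By direction, 19.0% of the members fell, against 12.3% of all genes, and 8.33% rose, against 12.8% of all genes. These shares over all genes are also the background for the family and list counts below. The median difference was -0.05 over the members and -0.00 over all genes. The 61 genes that did not pass ranged from -0.40 (Kcnj13, an inward rectifier) to 0.36 (Kcne3, an accessory subunit). At least 2-fold differences were found for 6 of the genes that fell and 5 of those that rose, against 3.25% of all genes. The TAC and sham values did not overlap for 24 members, against 25.2% of all genes. In 16 of the 24 all TAC values were below all sham values, against 12.2% of all genes, and in 8 they were above, against 13%.

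**Figure D1:**
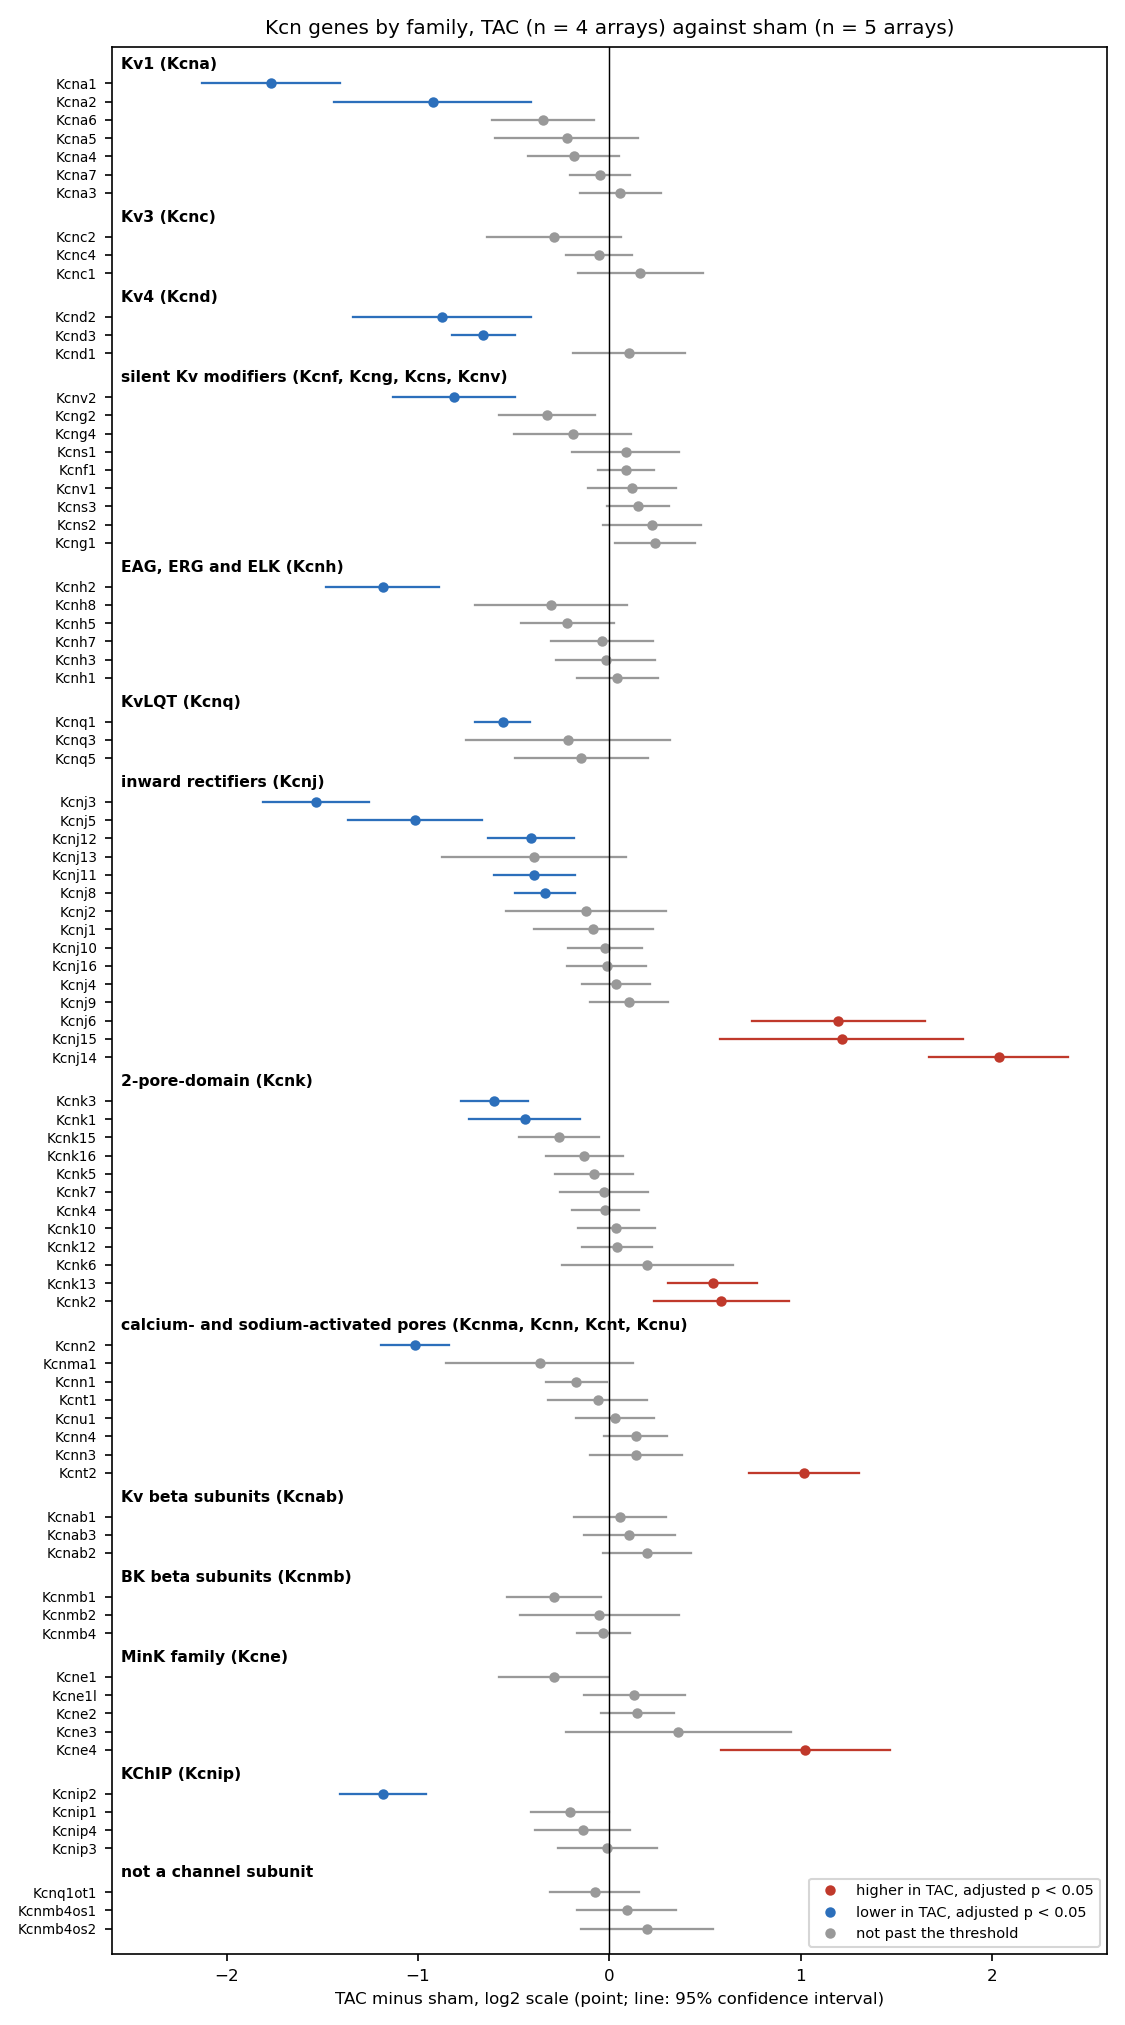
TAC minus sham on the log2 scale for each of the 84 Kcn genes, grouped by channel family, with points for the difference and lines for its 95% confidence interval (4 TAC and 5 sham arrays). The 16 genes that fell spread over voltage-gated, inward rectifier, Kcnk, calcium-activated and KChIP families, whereas 5 of the 7 that rose are in the Kcnj and Kcnk families.

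The promoters of 4 changed genes are shown because they belong to genes with opposite directions, the pore genes Kcnd2 and Kcnd3 that fell and the genes Kcne4 and Kcnj15 that rose. Each is the 250 bases before the annotated start of the gene in RefSeq (build GRCm38.p6, plus strand), written 5′ to 3′. The window of Kcnd2 is chr6:21215096-21215345, that of Kcnd3 is chr3:105451640-105451889, that of Kcne4 is chr1:78816661-78816910 and that of Kcnj15 is chr16:95257308-95257557. Capitals mark matches on either strand to the GC box GGGCGG and to the CACCC box CACCC, letters that factors of the Sp and Klf families are known to bind.
Kcnd2: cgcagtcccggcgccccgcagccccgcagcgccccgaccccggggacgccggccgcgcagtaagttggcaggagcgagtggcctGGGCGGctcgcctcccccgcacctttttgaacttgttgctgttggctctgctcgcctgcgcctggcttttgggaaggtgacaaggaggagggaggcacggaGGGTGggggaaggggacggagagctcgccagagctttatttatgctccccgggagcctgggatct
Kcnd3: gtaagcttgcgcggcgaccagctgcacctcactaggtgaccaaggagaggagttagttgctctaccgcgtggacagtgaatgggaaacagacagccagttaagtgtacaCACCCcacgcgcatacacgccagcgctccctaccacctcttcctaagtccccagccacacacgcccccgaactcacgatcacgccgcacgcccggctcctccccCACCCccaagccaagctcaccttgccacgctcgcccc
Kcne4: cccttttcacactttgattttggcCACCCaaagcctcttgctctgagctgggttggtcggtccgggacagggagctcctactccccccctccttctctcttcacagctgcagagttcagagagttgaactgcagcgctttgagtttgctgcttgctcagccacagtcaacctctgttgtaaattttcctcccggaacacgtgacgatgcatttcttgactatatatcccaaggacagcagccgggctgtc
Kcnj15: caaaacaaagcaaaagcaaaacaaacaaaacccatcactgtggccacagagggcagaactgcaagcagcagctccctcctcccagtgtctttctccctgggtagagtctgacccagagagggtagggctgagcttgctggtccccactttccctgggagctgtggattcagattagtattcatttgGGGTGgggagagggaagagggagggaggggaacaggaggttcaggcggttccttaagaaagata

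The Kcnd2 window held 1 GC box and 1 CACCC box, that of Kcnd3 held 2 CACCC boxes, and those of Kcne4 and Kcnj15 held 1 CACCC box each. No base was shared between a GC box and a CACCC box in these 4 windows. Over all 32851 promoters, 32.7% held a GC box and 52.0% a CACCC box in the same window. Of the 89 promoters of Kcn genes, changed or not, 44.9% held a GC box and 75.3% a CACCC box. A match is therefore common, more so among Kcn genes, and describes only the letters. The 4 windows were picked from 16 changed Kcn genes with a promoter sequence. The G and C content was 68.8% for Kcnd2, 62.8% for Kcnd3 and 53.2% for both Kcne4 and Kcnj15.

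The genes of the fast transient outward current fell together. Kcnip2 encodes KChIP2, the accessory subunit that brings Kv4 pores to the membrane. Its values were 10.78, 10.62, 10.48 and 10.90 in TAC, against 12.01, 11.68, 11.81, 11.90 and 12.00 in sham. The highest TAC array lay below the lowest sham array by 0.78, and the gene fell by 1.18 (SE 0.10, adjusted p = 2.61e-05), a 2.27-fold lower level. Kcnd3, which encodes the pore Kv4.3, had 10.24, 10.30, 10.00 and 10.18 in TAC, against 10.80, 10.83, 10.84, 10.79 and 10.93 in sham. The sham arrays were nearly level and all above the TAC arrays, and the gene fell by 0.66 (SE 0.07, adjusted p = 0.000135). Kcnd2, which encodes Kv4.2, the other ventricular Kv4 pore, had 8.22, 8.18, 8.07 and 7.93 in TAC, against 8.94, 9.61, 9.14, 8.86 and 8.31 in sham. The sham arrays were widely spread, and sham replicate 5 came within 0.09 of the highest TAC array. Kcnd2 fell by 0.87 (SE 0.21, adjusted p = 0.0115). The third Kv4 gene, Kcnd1, differed by 0.10 and did not pass, and neither did the other KChIP genes Kcnip1, Kcnip3 and Kcnip4, at -0.21 to -0.01.

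Among the other voltage-gated pores, 5 genes fell and 0 rose. With the Kv4 genes included, 10 of 31 voltage-gated pore genes (32.3%) had an unadjusted p below 0.05 in limma, against 35.8% of all genes. Kcnh2 encodes the ERG pore of the rapid delayed rectifier. It had 8.08, 8.31, 7.60 and 8.05 in TAC, against 9.37, 9.32, 9.15, 9.07 and 9.08 in sham, and fell by 1.18 (SE 0.13, adjusted p = 0.000139). The groups were 0.75 apart at their nearest arrays. Kcnq1 encodes the pore of the slow delayed rectifier, and had 9.34, 9.15, 9.17 and 9.33 in TAC, against 9.78, 9.85, 9.77, 9.82 and 9.80 in sham. It fell by 0.56 (SE 0.06, adjusted p = 0.000171), with an SD of 0.03 among the sham arrays. Its partner Kcne1, the MinK subunit, had 7.10 ± 0.14 in TAC (SD, n = 4) and 7.39 ± 0.25 in sham (SD, n = 5) and did not pass (difference -0.29, adjusted p = 0.133). Without sham replicate 2, the lowest sham array, Kcne1 passed at -0.39 (adjusted p = 0.0144). It also passed with arrays centred on their median gene (-0.34, adjusted p = 0.0479) and with array weights (-0.33, adjusted p = 0.0196). The second Kcne1 probe set, nearly as bright, did not pass (-0.10, adjusted p over all probe sets = 0.853).

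**Figure D2:**
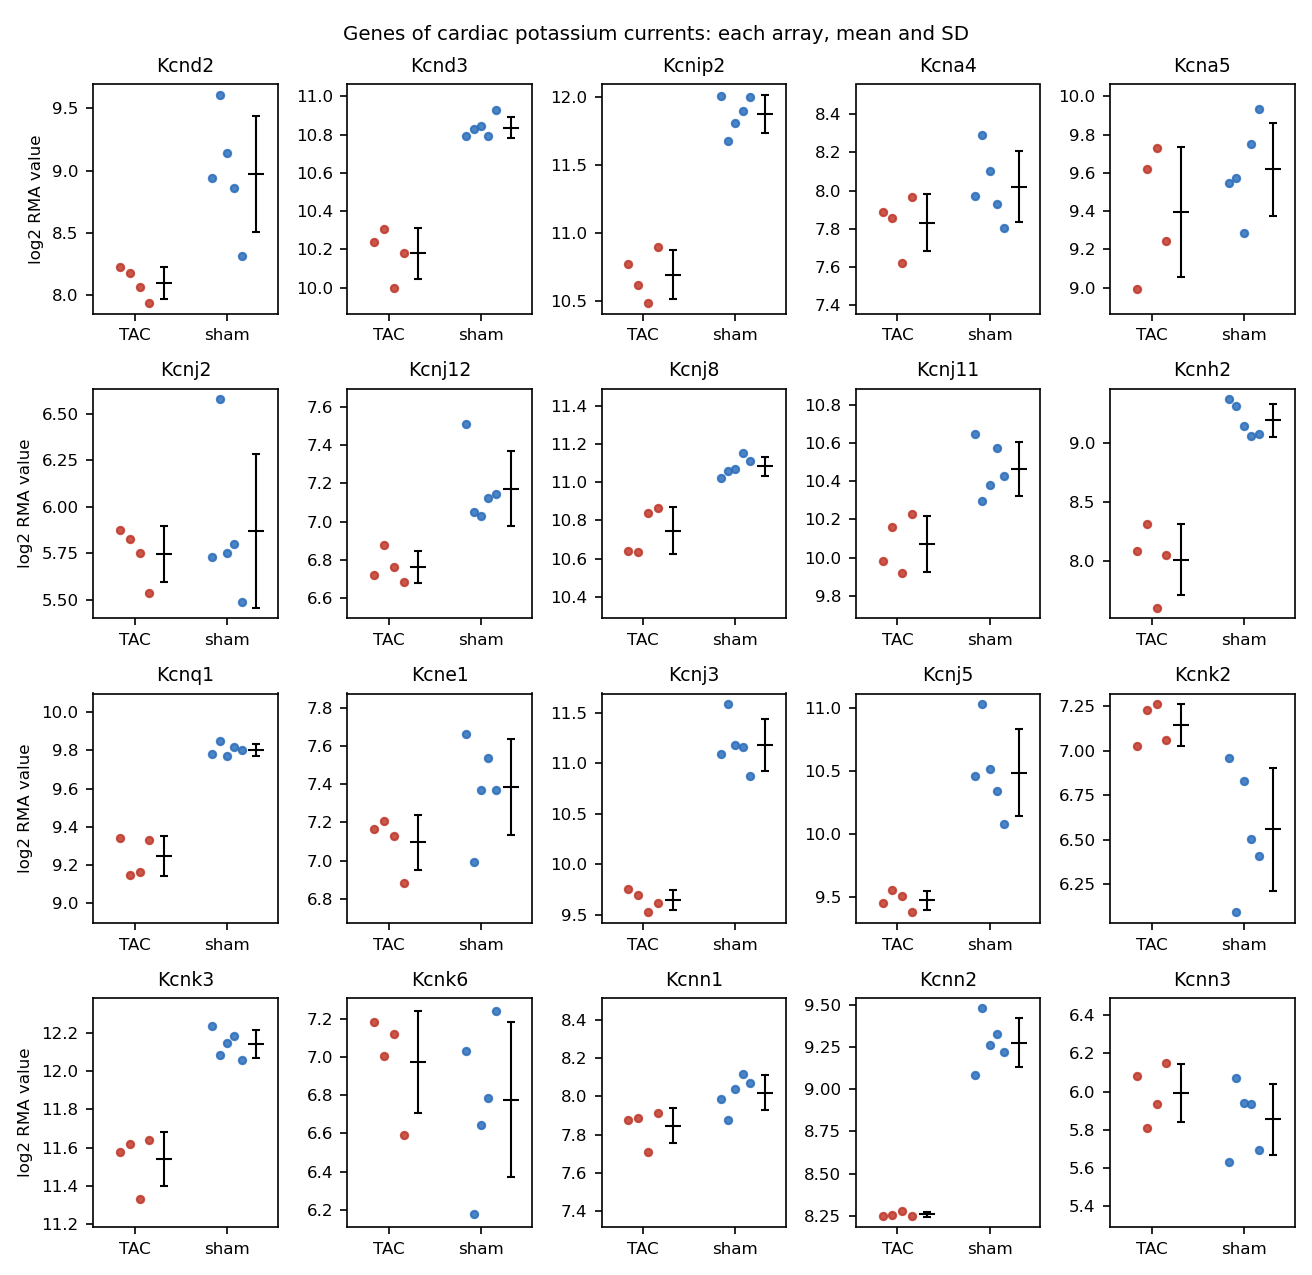
Log2 RMA values of the 20 measured genes of cardiac potassium currents in each TAC array (red, left) and each sham array (blue, right), with the mean and SD beside the points and a separate vertical scale for each gene. The groups do not overlap for 13 genes, of which Kcnk2 alone was higher in TAC.

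Of the 7 Kv1 genes 2 fell (28.6%, against 12.3% of all genes). The difference was negative for 6 of the 7 and positive for 1. Kcna6 did not pass (-0.35, adjusted p = 0.0588). Kcna1 and Kcna2, which encode pores best known from axons, fell. Kcna1 had 5.36, 4.77, 5.03 and 5.09 in TAC, against 7.09, 7.06, 6.54, 6.996 and 6.47 in sham. That is the largest decrease among the 84 genes in these arrays, at -1.77 (SE 0.16, adjusted p = 3.83e-05) or 3.40-fold. Kcna2 had 5.53, 4.52, 5.40 and 5.49 in TAC, against 5.98, 6.72, 5.87, 5.96 and 6.28 in sham, and fell by 0.92 (SE 0.23, adjusted p = 0.0149). TAC replicate 2 was well below the other TAC arrays for Kcna2. The nerve and Schwann marker list had 0 members that rose and 1 that fell (Dbh) of 5 measured, with summed log2 levels of 25.9 to 27.0 in TAC and 26.8 to 28.4 in sham, and its part in these differences was not tested. The genes of the outward currents of mouse ventricle did not pass: Kcna4, which encodes Kv1.4, averaged 7.83 ± 0.15 in TAC and 8.02 ± 0.19 in sham (SD, n = 4 and n = 5). Kcna5, which encodes Kv1.5, averaged 9.40 ± 0.34 in TAC and 9.62 ± 0.24 in sham, with a difference of -0.22 and a 95% confidence interval of -0.59 to 0.15. Of the modifier subunits that form no channel alone (Kcnf, Kcng, Kcns and Kcnv), 1 of 9 fell. This was Kcnv2, with 4.47, 4.63, 4.48 and 4.41 in TAC, against 5.25, 5.33, 5.47, 5.67 and 4.83 in sham (difference -0.81, SE 0.14, adjusted p = 0.00229). Kcng2, another modifier, did not pass (-0.33, adjusted p = 0.0592), but did without sham replicate 2 (-0.37, adjusted p = 0.0407). No Kv3 gene passed. Kcnc2, the member with the smallest p, had a difference of -0.29 (adjusted p = 0.222).

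The inward rectifiers changed in both directions, with 5 of 15 genes lower (33.3%) and 3 higher (20%). Of all genes 12.3% were lower and 12.8% higher. Kcnj3 and Kcnj5 encode the GIRK subunits that form the acetylcholine-activated channel of the heart. Kcnj3 had 9.76, 9.69, 9.52 and 9.61 in TAC, against 11.10, 11.59, 11.18, 11.16 and 10.88 in sham. The groups were 1.12 apart at their nearest arrays, and the gene fell by 1.53 (SE 0.13, adjusted p = 1.99e-05) or 2.89-fold. Kcnj5 had 9.45, 9.55, 9.51 and 9.37 in TAC, against 10.46, 11.03, 10.51, 10.34 and 10.08 in sham, and fell by 1.01 (SE 0.16, adjusted p = 0.000996). Sham replicate 2 was the highest sham array for both genes, and without it Kcnj3 fell by 1.43 and Kcnj5 by 0.88. These channels are best known from the atria. Of the 3 atrial markers, Myl4 rose, and Myl7 and Sln did not pass. Their summed log2 levels were 17.7 to 19.3 in TAC and 17.6 to 18.7 in sham. Myl7 and Sln were dim, with means of 5.62 and 4.39 over all arrays. The part of atrial cells in the Kcnj3 and Kcnj5 differences was not tested.

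Both pore genes of the ATP-sensitive channel fell by small amounts. Kcnj11 encodes Kir6.2, the pore in heart muscle cells. It had 9.98, 10.16, 9.92 and 10.23 in TAC, against 10.64, 10.30, 10.38, 10.57 and 10.43 in sham, and fell by 0.39 (SE 0.09, adjusted p = 0.0122). The call ended when the mean of both Kcnj11 probe sets was used (difference -0.14, adjusted p = 0.386). Kcnj8 encodes Kir6.1, known from pericytes and vascular smooth muscle. It had 10.64, 10.64, 10.84 and 10.87 in TAC, against 11.02, 11.06, 11.07, 11.15 and 11.11 in sham, and fell by 0.34 (SE 0.07, adjusted p = 0.00619). Of 5 pericyte markers 1 rose (Pdgfrb, 0.25) and 1 fell (Vtn, -0.82), with summed log2 levels of 51.5 to 52.3 in TAC and 51.3 to 52.5 in sham. Of 5 smooth muscle markers 1 rose (Tagln) and 2 fell (Myh11 and Acta2), with summed log2 levels of 42.7 to 44.0 in TAC and 42.7 to 44.7 in sham, and the part of these cells in the Kcnj8 difference was not tested. Of the genes of the resting inward rectifier, Kcnj12, which encodes Kir2.2, had 6.72, 6.88, 6.76 and 6.68 in TAC, against 7.51, 7.05, 7.03, 7.12 and 7.15 in sham (difference -0.41, SE 0.10, adjusted p = 0.0135). Kcnj2, which encodes Kir2.1, averaged 5.75 ± 0.15 in TAC and 5.87 ± 0.41 in sham and did not pass (difference -0.12, 95% confidence interval -0.54 to 0.30, adjusted p = 0.6996). Its single probe set was dim, and without sham replicate 2 the difference was 0.05.

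Kcnj14, which encodes the inward rectifier Kir2.4 and had a single probe set, showed the largest increase among the 84 genes. Its values were 8.61, 8.41, 8.58 and 8.50 in TAC, against 6.81, 5.90, 6.53, 6.44 and 6.77 in sham. The TAC arrays were close together and all above the sham arrays by at least 1.60, and the gene rose by 2.03 (SE 0.16, adjusted p = 1.91e-05) or 4.10-fold. Kcnj15, which encodes Kir4.2, known from kidney, had 6.22, 6.18, 6.48 and 5.99 in TAC, against 5.43, 3.86, 5.31, 5.25 and 5.18 in sham. It rose by 1.21 (SE 0.29, adjusted p = 0.0107), and without sham replicate 2, the low array, by 0.93 (adjusted p = 0.000164). Kcnj6, which encodes the neuronal GIRK subunit GIRK2, had 5.46, 6.21, 5.18 and 6.04 in TAC, against 4.31, 4.74, 4.58, 4.71 and 4.29 in sham (difference 1.195, SE 0.20, adjusted p = 0.00177). Its probe sets did not all go one way.

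**Figure D3:**
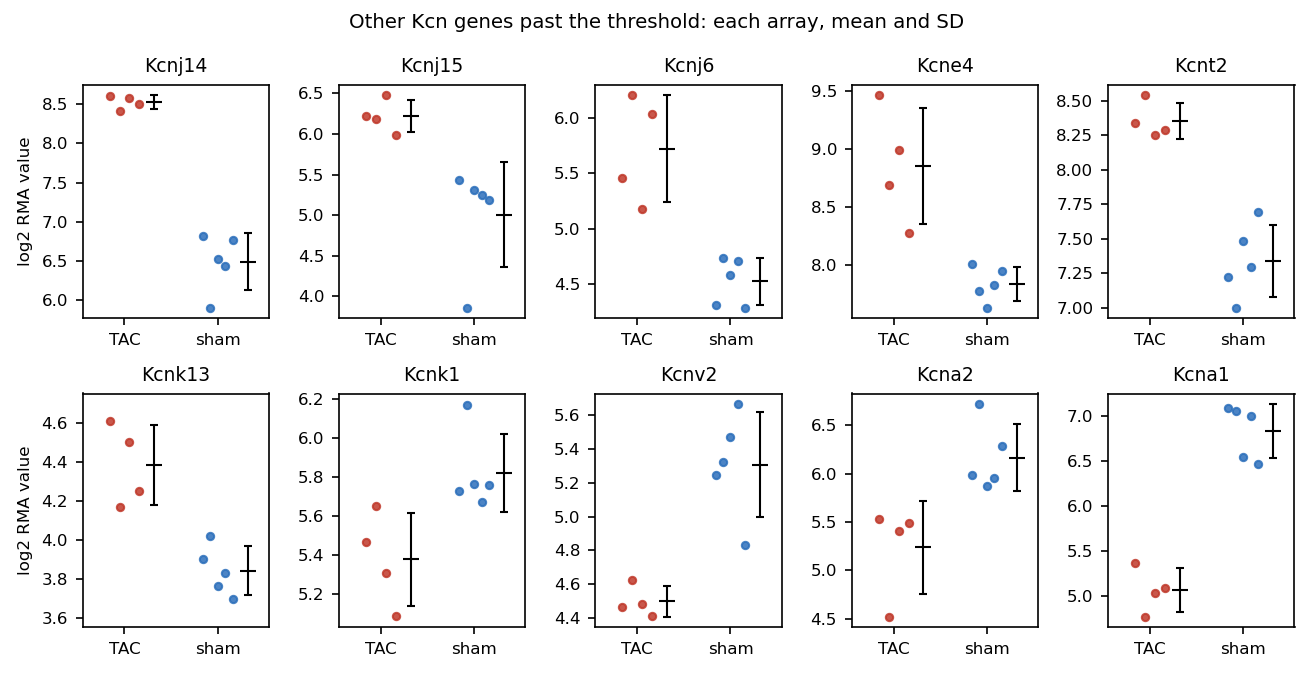
Log2 RMA values of the 10 changed Kcn genes outside the cardiac current lists in each TAC array (red, left) and each sham array (blue, right), with mean and SD and a separate vertical scale for each gene, ordered from the largest increase to the largest decrease. The TAC arrays lie above the sham arrays for Kcnj14, Kcnj15, Kcnj6, Kcne4, Kcnt2 and Kcnk13 and below them for Kcnk1, Kcnv2, Kcna2 and Kcna1.

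In the Kcnk family 2 of 12 genes fell and 2 rose (16.7% each), against 12.3% and 12.8% of all genes. Kcnk3, which encodes the acid-sensitive background channel TASK-1, had 11.58, 11.62, 11.33 and 11.64 in TAC, against 12.24, 12.08, 12.15, 12.18 and 12.06 in sham. It fell by 0.60 (SE 0.08, adjusted p = 0.000367), with 0.42 between the nearest arrays of the groups. Kcnk2, which encodes the stretch-activated channel TREK-1, had 7.02, 7.23, 7.26 and 7.06 in TAC, against 6.96, 6.09, 6.83, 6.505 and 6.41 in sham. It rose by 0.58 (SE 0.16, adjusted p = 0.0219), but the nearest arrays were only 0.07 apart, and it did not pass without TAC replicate 2 (0.56, adjusted p = 0.0602) or without TAC replicate 3 (0.54, adjusted p = 0.0674). Kcnk1, which encodes TWIK-1, fell by 0.44 (SE 0.13, adjusted p = 0.0316). That call ended on leaving out sham replicate 3 (-0.46, adjusted p = 0.0531), TAC replicate 1 (-0.47, adjusted p = 0.0542), TAC replicate 3 (-0.42, adjusted p = 0.0872) or TAC replicate 4 (-0.34, adjusted p = 0.0824), and with array weights (-0.29, adjusted p = 0.0551). The second Kcnk1 probe set had 4.59, 4.24, 4.49 and 4.71 in TAC, against 5.92, 5.87, 5.46, 5.63 and 5.82 in sham. It fell by 1.23 (SE 0.12, adjusted p over all probe sets = 8.00e-05) or 2.35-fold, with no overlap of the groups. Kcnk6, which encodes TWIK-2, was at 0.20 (adjusted p = 0.534). Kcnk15, which did not pass either (-0.26, adjusted p = 0.0638), passed without sham replicate 2 (-0.29, adjusted p = 0.0485).

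Kcnk13 encodes THIK-1, known from microglia, the macrophages of the brain. Its probe set was among the dimmer ones, with 4.61, 4.17, 4.503 and 4.25 in TAC, against 3.90, 4.02, 3.76, 3.83 and 3.69 in sham (difference 0.54, SE 0.10, adjusted p = 0.00379). Macrophage markers were higher in the same arrays. Of 6 macrophage markers 5 rose, and the summed log2 level of the list was 61.2 to 62.4 in TAC and 56.7 to 59.4 in sham. Their part in the Kcnk13 difference was not tested. Other channel genes known from immune cells, Kcna3 and Kcnn4, differed by 0.06 and 0.14 and did not pass. The second Kcnn4 probe set did not pass either (0.22, adjusted p over all probe sets = 0.116). Both genes are named outside the naming rule given below, and whether they bear on the Kcnk13 difference was not tested.

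Of the calcium- and sodium-activated pores 1 of 8 fell and 1 rose (12.5% each), near the 12.3% and 12.8% of all genes. Kcnn2 encodes the small-conductance channel SK2, which opens with calcium. It had 8.25, 8.26, 8.28 and 8.25 in TAC, against 9.08, 9.48, 9.26, 9.33 and 9.22 in sham. The TAC arrays hardly differed among themselves (SD 0.02), all lay 0.80 or more below the sham arrays, and the gene fell by 1.02 (SE 0.08, adjusted p = 1.60e-05). The other SK genes did not pass, with -0.17 for Kcnn1 (adjusted p = 0.114) and 0.14 for Kcnn3 (adjusted p = 0.395). Kcnn1 passed without sham replicate 2 (-0.21, adjusted p = 0.0483), with arrays centred on their median gene (-0.22, adjusted p = 0.0293) and with array weights (-0.21, adjusted p = 0.0235). The second Kcnn1 probe set did not pass (-0.04, adjusted p over all probe sets = 0.826). Kcnt2, which encodes the sodium-activated channel Slick, had 8.34, 8.54, 8.25 and 8.29 in TAC, against 7.22, 6.998, 7.48, 7.29 and 7.69 in sham, and rose by 1.02 (SE 0.13, adjusted p = 0.000313).

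Accessory genes changed in 2 of 15 cases, Kcnip2 and Kcne4, which is 13.3%, against 25.1% of all genes. Kcne4 encodes a MinK-related subunit known to inhibit the Kcnq1 channel in expression systems. It had 9.47, 8.69, 8.99 and 8.28 in TAC, against 8.003, 7.77, 7.63, 7.82 and 7.95 in sham, and rose by 1.02 (SE 0.20, adjusted p = 0.00389). The TAC arrays were spread over more than 1 unit on the log2 scale, and the lowest was 0.27 above the highest sham array. Of 6 fibroblast markers 4 rose (Postn, Col1a1, Col3a1 and Dcn), and Pdgfra (0.04) and Tcf21 (0.13) did not pass. Summed log2 levels of the list were 70.9 to 72.8 in TAC and 65.0 to 67.8 in sham. Postn had the largest difference of the list, 3.28. The part of fibroblasts in the Kcne4 difference was not tested. The Kv beta genes (smallest adjusted p = 0.207, Kcnab2) and the genes of the beta subunits of the large-conductance calcium-activated channel (smallest adjusted p = 0.0817, Kcnmb1, difference -0.29) did not pass. Kcnmb1, known as a smooth muscle gene, passed without sham replicate 4 (-0.35, adjusted p = 0.0378).

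The genes of cardiac potassium currents, listed by current from textbook knowledge, were lower more often than the members as a group, which include them. Of 20 measured genes 12 fell and 1 rose, and of all genes 12.3% fell. The median difference was -0.40, against -0.00 over all genes. Of the 20 genes 14 had a mean above that of the median gene, and 19.1% of all genes above it fell. All measured genes fell for the fast transient outward, ATP-sensitive and acetylcholine-activated currents. The list was drawn up with earlier results of these data known, so it is no independent evidence of a direction.

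**Figure D4:**
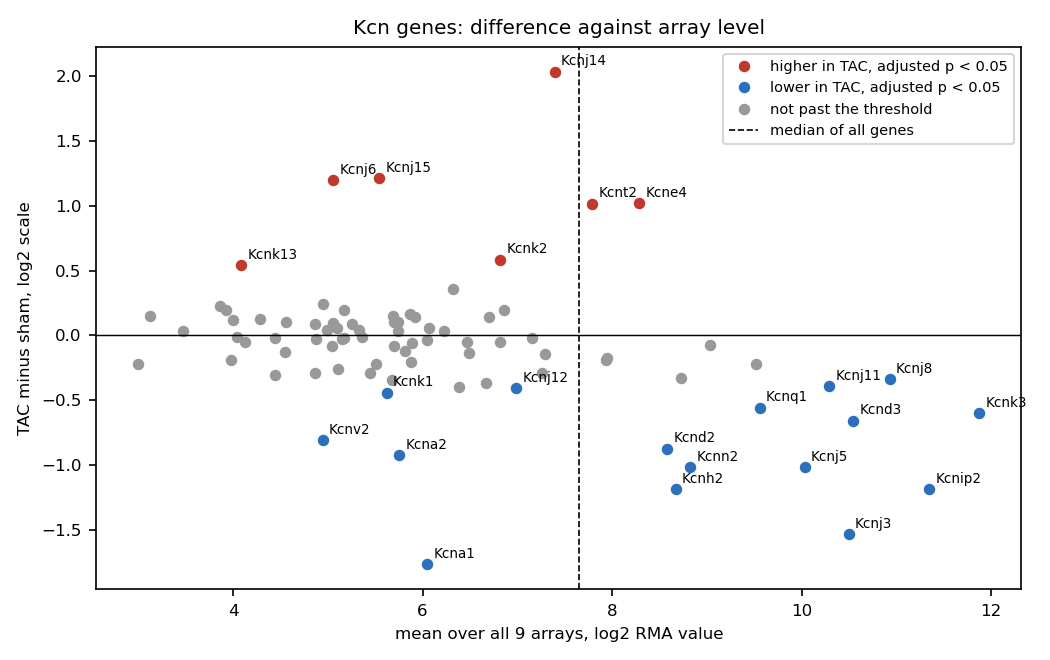
TAC minus sham on the log2 scale against the mean over all 9 arrays, for the 84 Kcn genes, with the median level of all genes (7.65) as a dashed line. Of the 18 members to the right of the line 11 fell and 2 rose, and most members to the left lie near 0.

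The changes also differed with the signal of the probe set. Of the 18 members with a mean above that of the median gene, 11 fell and 2 rose, which is 72.2% changed, against 36.6% of all genes above the median (19.1% lower and 17.5% higher). Of the 66 dimmer members 5 fell and 5 rose, which is 15.2%, against 13.6% of all genes below the median (5.46% lower and 8.13% higher). No detection calls were used and no dim gene was left out, and these shares are a description without a test. The shares under other settings are given beside the background of each. When the fit held only genes above the median gene, 12 members fell and 2 rose of 18, and of all genes in that fit 45.3% changed, 24.2% lower and 21.2% higher. When a change of more than 1.2-fold was required, 10 members fell and 4 rose of 84, so that 16.7% changed, 11.9% lower and 4.76% higher. Of all genes 7.54% changed at that threshold, 3.29% lower and 4.24% higher, so the members' share was above the background there, through genes that fell. When arrays were centred on their median gene, 21 members fell and 7 rose, and of all genes 26.9% changed, 16% lower and 10.9% higher. Without sham replicate 2, 20 members fell and 7 rose, against 13.9% and 13.1% of all genes.

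Several probe sets could be set against each other for 46 of the 84 genes. Of the 23 changed genes 10 had 1 probe set, so this check could not be made for them. These were Kcne4, Kcnh2, Kcnj8, Kcnj12, Kcnj14, Kcnk2, Kcnn2, Kcnq1, Kcnt2 and Kcnv2. Over all 167 member probe sets, 31 fell and 11 rose, together 42, against 17.7% of all probe sets (8.86% lower and 8.87% higher). Of the 13 changed genes with several probe sets, 10 had at least 1 further probe set that changed the same way with p adjusted over all probe sets, and the exceptions were Kcnj5, Kcnj11 and Kcnk13. The further probe sets that passed differed by -1.23 and -0.66 for Kcnd2, by -1.70 and -1.47 for Kcnj3, by -0.90 for Kcnip2 and by -2.61 and -1.14 for Kcna1. The dimmest probe set of each of these genes did not pass, with differences of -0.15, -0.55, 0.08 and -0.09.

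**Figure D5:**
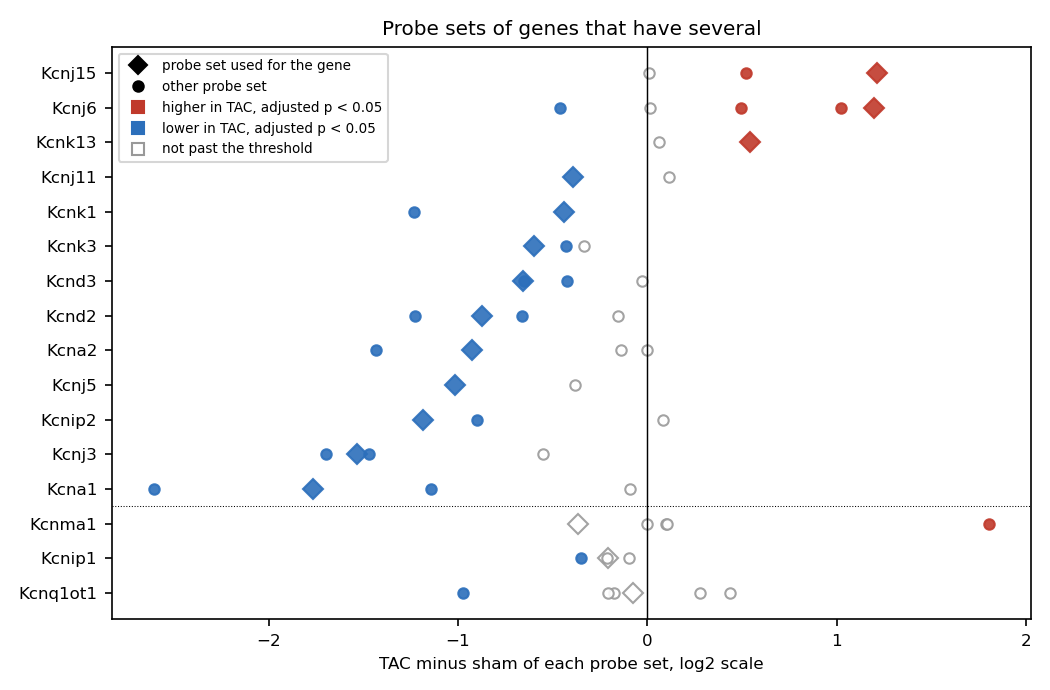
TAC minus sham on the log2 scale for each probe set of the 13 changed genes that have several (above the dotted line) and of 3 genes that did not change by their brightest probe set (below it). Diamonds mark the probe set used for the gene, filled red or blue marks passed at an adjusted p below 0.05, and Kcnj6 is the 1 changed gene with passing probe sets on both sides of 0.

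Kcnj6 had probe sets in both directions. Besides the one used, 2 others rose, by 1.02 and 0.49, 1 fell, by 0.46 (adjusted p = 0.0282), and 1 was level at 0.02. Kcnma1 encodes the large-conductance calcium-activated pore. Its brightest probe set averaged 6.47 ± 0.23 in TAC and 6.84 ± 0.47 in sham and did not pass (difference -0.36, adjusted p over all probe sets = 0.300). Another Kcnma1 probe set, nearly as bright, had 7.75, 7.68, 7.74 and 6.99 in TAC, against 5.45, 6.25, 5.42, 5.65 and 5.88 in sham. All TAC arrays lay above all sham arrays there, and it was higher in TAC by 1.81 (SE 0.20, adjusted p over all probe sets = 0.000171). The other 3 Kcnma1 probe sets, at -0.00 to 0.11, did not pass. Kcnma1 was singled out after its values were seen. Kcnq1ot1, a noncoding transcript of the Kcnq1 locus, had 6 probe sets between -0.97 and 0.44, of which the one at -0.97 passed (adjusted p = 0.0131). A dimmer Kcnip1 probe set fell by 0.35 (adjusted p = 0.0434), while its brightest, at -0.21, did not pass.

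Partner genes outside the Kcn symbols were read from the same fit. Of 14 measured genes for partner subunits, anchors and modifiers 5 fell and 0 rose, against 25.1% changed among all genes, and 0 had an unadjusted p below 0.05 in limma among those with a positive difference. Abcc9 encodes SUR2, the regulatory subunit of the cardiac ATP-sensitive channel. It had 11.47, 11.51, 11.58 and 11.46 in TAC, against 12.14, 12.25, 12.21, 12.12 and 12.29 in sham, and fell by 0.69 (SE 0.06, adjusted p = 3.64e-05). Abcc8, which encodes SUR1, fell by 0.53 (SE 0.10, adjusted p = 0.00293), so that all 4 measured subunit genes of ATP-sensitive channels fell. Amigo1, which encodes an auxiliary subunit of voltage-gated channels, fell by 0.61 (SE 0.10), and Nedd4l, a ubiquitin ligase that acts on ion channels, by 0.35 (SE 0.07). The fifth, Lrrc52, a leucine-rich repeat subunit of large-conductance channels, was dim (difference -0.65, adjusted p = 0.0465) and is named after its values were seen. Dpp6 and Dpp10, which encode further Kv4 partners known from neurons, differed by -0.08 and 0.02 and did not pass.

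Of 6 measured transcription factors known to act on cardiac potassium channel genes, 2 fell (33.3%), against 12.3% of all genes. Klf15 encodes a factor known to drive Kcnip2 in the mouse heart. It had 8.93, 9.56, 8.98 and 9.80 in TAC, against 10.45, 11.02, 10.59, 10.83 and 10.74 in sham, and fell by 1.41 (SE 0.19, adjusted p = 0.000391). Irx3, known from the ventricular conduction system, fell by 0.30 (SE 0.08, adjusted p = 0.0219). Irx4, Irx5, Nfatc3 and Mef2c, at -0.28 to 0.03, did not pass. Whether these factors bear on the channel genes was not tested.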

How the data were processed

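Left ventricular RNA samples were hybridised to 9 Affymetrix mouse arrays. The authors deposited log2 values, and the submitters' processing notes name RMA without a version. That method corrects background, equalises the distribution of arrays and summarises probes. All 9 arrays held the same sorted values, so a general rise or fall of RNA cannot be seen, and the number of arrays limits the precision. Of 45101 probe sets, 34945 had 1 gene symbol in the platform annotation. The gene IDs of all 84 Kcn genes were found in the RefSeq table.

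Groups came from the treatment label, and replicate numbers are only the order of samples. All genes were fitted by lmFit and eBayes of limma (version 3.58.1, run in R 4.3.3) as TAC minus sham without covariates, two-sided, with 7 residual degrees of freedom, and the code was tested on simulated data. Probe sets were fitted separately over 45037 probe sets. Python 3.11.15 was used for summaries and figures. Named genes were all changed Kcn genes, all genes of the cardiac current lists, the member with the smallest p of each family without a change, and up to 4 changed genes of other lists. Further genes in the text, such as Kcnd1, Kcna3, Kcnn4, Kcng2, Kcnk15, Kcnma1, Dpp6 and Irx4, were named outside this rule. The members and lists were chosen with earlier results of these data known. Of the marker lists for endothelial cells (1 of 6 fell), lymphocytes (1 of 5 rose), adipocytes (0 of 1 changed), erythroid cells (0 of 2) and the epicardium (0 of 3), none is used further. For the last 3 lists, limma gave 1, 1 and 0 genes with an unadjusted p below 0.05. Alternatives were other probe set choices, filters, variance models, scalings and thresholds, and leaving out each array.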

Additional observations from a re-analysis of the deposited data

Results flagged for a closer look

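In 5 of 68 sets of arrays (the TAC or the sham arrays of 1 of the 34 named genes) the highest or lowest array lay far from the others of its group by Dixon's test, and chance flags about 1 in 20. For Kcna2, TAC replicate 2 had 4.52, and the other TAC arrays had 5.40 to 5.53. For Kcnj12, sham replicate 1 had 7.51, and the other sham arrays had 7.03 to 7.15. Sham replicate 2 was the distant array in the other 3 sets. It had 3.86 for Kcnj15, where the others had 5.18 to 5.43, 6.58 for Kcnj2, where the others had 5.49 to 5.80, and 6.17 for Kcnk1, where the others had 5.67 to 5.76.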

How the results depend on the processing

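Leaving out each array in turn gave 6 to 8 Kcn genes that were higher and 15 to 20 that were lower in TAC, with a median difference over the members of -0.07 to -0.03. Of the 23 changed genes, 21 kept their call without each of the 9 arrays, and the exceptions were Kcnk1 and Kcnk2. With genes above the median gene alone, 18 members were left. Of these, 2 were higher, against 7 Kcn genes with all genes, and their median was -0.47. The same brighter members had that median in the main fit too, against -0.02 for the dimmer members. With a threshold of 1.2-fold in treat, 4 were higher and 10 lower, against 7 and 16, since a larger change is asked for. Kcnj2, which did not pass, turned from -0.12 to 0.0045 with array weights and was -0.22 to 0.055 when each array was left out in turn (0.055 without sham replicate 2). No changed gene turned its direction under any of the 18 settings run. Of 594 single-gene values under other settings, 561 kept call and direction, 24 lost the call and 7 gained it. Centring arrays on their median gene moved the median of all genes to -0.05, with 7 Kcn genes higher and 21 lower. No paired analysis was possible because the labels give no replicate numbers that groups share. Dim probe sets limit what can be said of members that did not pass.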
